A study of Mus musculus with 36 samples.

Results

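Fixed autosomal windows of 500 bp that were methylated in the liver of C57BL/6N mice (B6) and less methylated in the liver of C3H/HeN mice (C3) are described here. Of 1456902 windows with at least 5 CpGs and at least 30 counts in every animal, 1188 (0.0815%) were members. They were chosen by their measured methylation, since the mean of the 6 B6 parents had to exceed the mean of the 6 C3 parents by at least 30 percentage points, with every B6 animal above every C3 animal. The contrast of B6 with C3 is therefore given as a description without a test. The same rule with the strains exchanged chose 1224 windows, called mirrored windows below. The members held 9881 CpGs and covered 594000 bp.

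Methylation was measured by whole-genome bisulfite sequencing of liver DNA from 24 mice of inbred strains without any introduced allele or treatment. The B6 and C3 parents were 3 sires and 3 dams each, and the offspring were 3 males and 3 females from each direction of the cross, with a B6 dam and a C3 sire for B6C3F1 and a C3 dam and a B6 sire for C3B6F1. The paper states that the animals were selected as nuclear families of a sire, a dam, a son and a daughter, 3 for each cross. The sample labels do not say which animals form a family, so kinship was not modelled. Every animal was 20 weeks old at sacrifice. The parents had been mated at 10 weeks and pups were weaned at week 16. The dams had thus nursed litters, whereas the F1 females were virgin. The spread between animals includes any difference between their libraries. Autosomal counts per animal lay between 365740739 and 619888157, or 19.4 to 32.8 reads per CpG, and the median member held 102 to 230 counts in an animal. Whole liver holds several cell types, and at any window fewer cells with an unmethylated allele and fewer unmethylated CpGs in each cell cannot be told apart. Near the start sites of 6 hepatocyte genes (Alb, Apoa1, Ttr, Cyp2e1, Tat and Apoh) methylation was 6.44 to 43.9% over all animals, and near those of 7 genes of other cell types (Ptprc, Cd3e, Cd5l, Clec4f, Pecam1, Krt5 and Myh6) it was 61.0 to 92.0%.

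In mammals most CpGs are methylated, and the mark is copied to the new strand at replication. Promoters with many CpGs and enhancers bound by transcription factors are the usual exceptions, so a low level in an adult tissue often marks a regulatory element used there. In liver, the pioneer factors of the FOXA family act at many such elements together with HNF4A, HNF1, HNF6 and C/EBP factors. Where each allele keeps the level of its strain, an F1 animal that carries both alleles lies at the mean of its parents, the midparent.

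Sequence from 4 members is shown to give the CpG content behind the percentages, with the CpGs of the deposited table in capitals, on the plus strand of mm9. The first stretch (chr7:70947749-70947988) belongs to the member with the largest difference, between genes at 121756 bp from the start of Klf13. The second (chr14:52100016-52100255) lies in an intron of Gm7247. The third (chr2:120967259-120967498) lies in an intron of Adal, 377 bp from the start site of this adenosine deaminase-like gene. The fourth (chr13:104382698-104382937) lies in the longest run of members, 171584 bp from the start of Srek1.
Klf13 region: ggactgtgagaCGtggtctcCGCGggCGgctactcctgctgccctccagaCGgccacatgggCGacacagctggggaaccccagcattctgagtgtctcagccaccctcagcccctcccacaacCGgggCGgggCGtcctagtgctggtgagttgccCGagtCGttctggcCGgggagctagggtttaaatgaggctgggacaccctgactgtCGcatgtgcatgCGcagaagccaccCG
Gm7247 intron: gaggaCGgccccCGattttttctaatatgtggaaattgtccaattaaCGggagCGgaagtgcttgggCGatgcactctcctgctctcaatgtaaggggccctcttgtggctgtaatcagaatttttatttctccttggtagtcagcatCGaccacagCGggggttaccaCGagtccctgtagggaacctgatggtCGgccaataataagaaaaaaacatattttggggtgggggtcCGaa
Adal intron: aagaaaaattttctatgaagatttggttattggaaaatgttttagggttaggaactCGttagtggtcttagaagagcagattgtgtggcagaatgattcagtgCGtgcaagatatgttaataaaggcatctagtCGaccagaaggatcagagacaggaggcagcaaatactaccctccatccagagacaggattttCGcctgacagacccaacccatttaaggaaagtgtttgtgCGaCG
Srek1 region: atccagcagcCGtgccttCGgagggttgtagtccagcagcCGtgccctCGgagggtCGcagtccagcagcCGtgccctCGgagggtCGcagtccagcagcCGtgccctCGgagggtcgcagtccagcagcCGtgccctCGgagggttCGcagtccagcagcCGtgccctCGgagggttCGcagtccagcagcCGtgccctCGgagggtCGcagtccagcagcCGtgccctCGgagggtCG

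Each stretch is 240 bases long. They held 15, 10, 6 and 22 CpGs of the table. In the Klf13 stretch B6 CpGs ranged from 61.8 to 97.7% and C3 CpGs from 0 to 1.82%, so that no CpG overlapped between the strains. In the Gm7247 stretch B6 CpGs lay at 53.6 to 92.6% and C3 CpGs at 0.515 to 5.08%. In the Adal stretch the ranges were 63.8 to 93.3% and 8.46 to 39.6%. The Srek1 stretch was a tandem array, where 76.2% of bases were identical to the base 30 positions on, against at most 35.9% at any period from 5 to 120 bases in the other stretches. Its CpGs spanned 55.7 to 95.7% among B6 and 0 to 46.7% among C3 animals. Between the strains, the Klf13 stretch carried G175T and the Gm7247 stretch C9T, counted from the first base shown with the B6 base first, and the other stretches carried no listed single-nucleotide variation (SNV).

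At the Klf13 member (chr7:70947501-70948000, 20 CpGs) the B6 males had 89.1, 88.2 and 93.2% methylation and the B6 females 85.4, 90.5 and 88.5%. The C3 males had 2.02, 3.53 and 2.31% and the C3 females 1.65, 0 and 5.33%. The 6 B6C3F1 animals lay between 39.8 and 54.0% (mean 46.8%) and the 6 C3B6F1 animals between 34.7 and 54.0% (mean 46%), so that all 12 F1 animals lay in the gap between the strains. At the Gm7247 member (chr14:52100001-52100500, 13 CpGs) B6 had 83.1% ± 1.51 (SD, n = 6), C3 4.60% ± 1.54, B6C3F1 49.5% and C3B6F1 44.2%. The other 6 of the 8 members with the largest differences (among those with at least 60 counts in every animal) had differences of 71.70 to 78.28 points. They were a window in an exon of Opa3, which codes for a mitochondrial membrane protein, introns of Ptprg, a receptor tyrosine phosphatase, and of Usp46, a deubiquitinase, and intergenic windows nearest to Zmynd8, a reader of histone marks, Ust, a uronyl sulfotransferase, and Kitl, the ligand of the Kit receptor. At the window nearest to Ust the median 24-mer of the mm9 sequence had 52 copies in the genome, and at the other 7 it had 1 copy.

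Over the members as a whole, each animal's mean methylation followed its genotype. The parents averaged 75.83% ± 0.202 (SD between animals, n = 6) for B6 and 35.36% ± 0.622 for C3. The crosses averaged 60.67% ± 0.565 for B6C3F1 and 61.10% ± 0.695 for C3B6F1. The B6 animals ranged from 75.65 to 76.22%, the C3 animals from 34.92 to 36.59%, the B6C3F1 animals from 59.96 to 61.44% and the C3B6F1 animals from 60.32 to 61.89%. The F1 ranges overlapped each other and lay apart from those of both strains. Within a window, the median SD between animals was 3.50 points in B6 and 5.43 in C3, against 2.54 and 2.58 points over all windows tested.

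**Figure D1:**
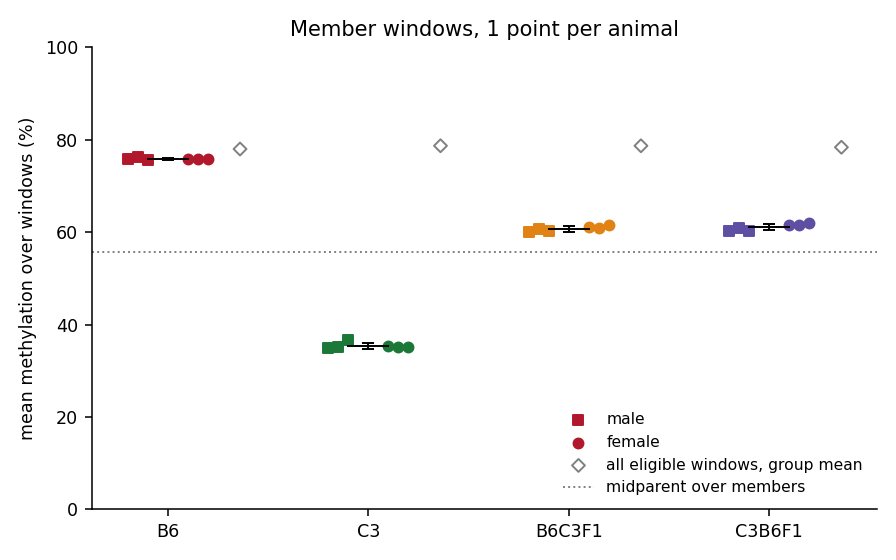
Mean percent methylation over the 1188 members in each of the 24 animals, by group, with squares for males, circles for females, and a bar with whiskers for the group mean and its SD (n = 6). The B6 points lie at 75.65 to 76.22%, the C3 points at 34.92 to 36.59% and all F1 points between 59.96 and 61.89%, above the dotted midparent, while diamonds give each group's mean over all eligible windows.

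The members differed in how low C3 was. The C3 mean was at most 10% at 60 members, 10 to 20% at 144, 20 to 50% at 765 and above 50% at 219. At the 60 members that were nearly unmethylated in C3 the median B6 level was only 46.2%. Of these 60, 11 (18.3%) lay within 500 bp of a protein-coding start site, against 36 of all 1188 members (3.03%). It was 4.19% of all windows tested and 5.88% of mirrored windows, sets that were not picked for a level this low. The share among windows or mirrored windows as low as these 60 was not computed. At the 219 members above 50% in C3 the median B6 level was 90.3%, and 2 lay at a start site. Only 20 members combined at least 80% in B6 with at most 20% in C3. The differences had a median of 37.85 points, with quartiles of 33.28 and 45.10 points, and 428 members lay between 30 and 35 points. The 3 members nearest to the threshold (in coding exons of Atp8b1 and Mn1 and in an intergenic window nearest to Snai2) had 30.02 to 30.03 points, the last of them in repeated sequence with a median of 3900 copies per 24-mer, and the 3 windows just outside it (in introns of Nav2 and Tnks1bp1 and nearest to Id2) had 29.97 to 29.99 points. Another 775 windows from 25 to under 30 points met the rest of the rule, and 9 windows of at least 30 points failed only because an animal overlapped.

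Within the members the difference was shared by most CpGs. Of 9479 CpGs with at least 10 counts in each strain, 94.0% were higher in B6, 64.8% were higher by at least 30 points, and 0.527% were higher in C3 by at least 10 points. In 842 members (70.9%) each such CpG was higher in B6. The rule used the sums of these same counts, so such shares follow largely from it and are a description. The members were also short. The 1188 windows formed 1074 runs of adjacent windows, of which 975 were single windows, 89 were pairs, 6 were runs of 3 and 4 were longer. Around the member centres, the mean difference was 37 and 36.6 points in the central bins of 250 bp, 16.1 and 17.6 points at 250 to 500 bp on either side, and 1.50 and 0.754 points at 2750 to 3000 bp. The B6 profile was nearly flat, from 73.6 to 78.8%, while C3 dipped from 77.3% at the edges to 37.8% at the centre. The gap between the strains at the centre is demanded by the rule.

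**Figure D2:**
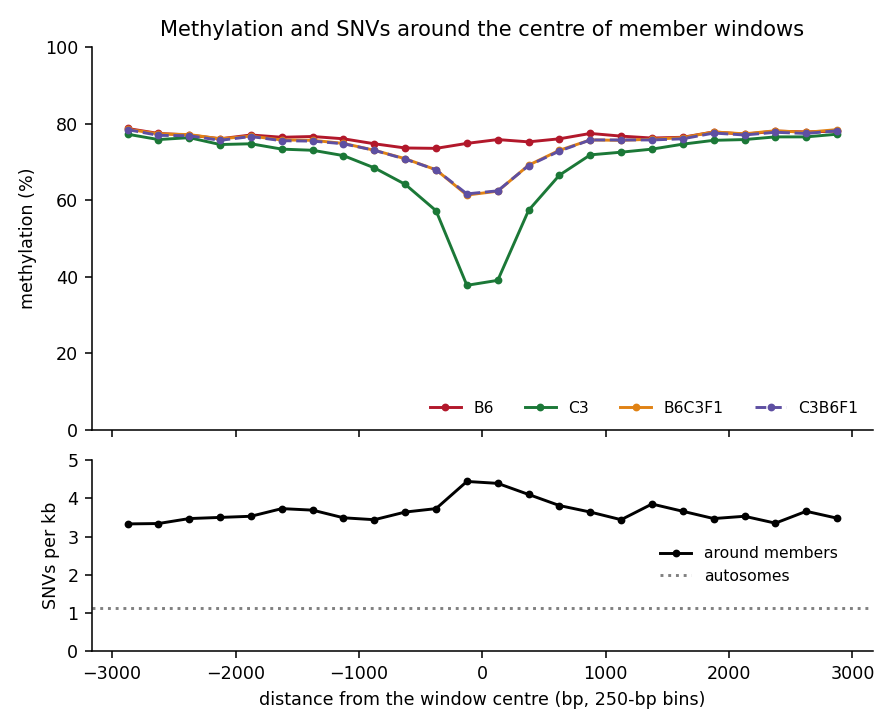
Upper panel, mean percent methylation of each group in bins of 250 bp around the centres of the 1188 members, with both F1 curves on top of each other. Lower panel, SNVs per kb in the same bins with the autosomal rate (1.14 per kb) as a dotted line, where the members reach 4.44 per kb at the centre and keep at least 3.33 per kb out to 3000 bp.

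The longest run was the Srek1 region (chr13:104381001-104383500, 5 windows, 53 CpGs), between genes, where B6 had 81.4% ± 3.61 (SD, n = 6) and C3 24.1% ± 8.55. B6C3F1 had 58.7% ± 9.38 and C3B6F1 60.3% ± 11.8. In 3 of its windows the F1 males and F1 females were called apart, as given below. A run of 4 windows near Ust (chr10:8268501-8270500) held 100 CpGs and no SNV, with 91.0% ± 1.58 in B6 and 27.9% ± 2.58 in C3. A run of 4 in an intron of Gm7247 (chr14:52100001-52102000) had 76.2% ± 2.58 for B6 against 10.0% ± 1.32 for C3, while B6C3F1 had 48.9% ± 2.83 and C3B6F1 43.7% ± 3.34. The last run of 4 reached into a UTR of Nedd4l, a ubiquitin ligase of membrane proteins, with 73.8% ± 5.12 in B6 and 31.3% ± 5.44 in C3. Runs of 3 lay in coding sequence of Tnks1bp1, a tankyrase-binding protein (90.9% ± 1.55 in B6 and 37% ± 4.78 in C3), and in an intron of Nav1 (88.3% ± 1.13 and 34.2% ± 6.53).

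The members lay over 10 kb from a start site in 71.2% of cases, against 73.7% of all windows tested and 65.8% of mirrored windows. Of the members 44.3% were in introns only, 44% lay between genes and 11.7% overlapped an exon, against 38.7, 45.7 and 15.5% of all windows tested and 40.6, 41.2 and 18.2% of mirrored windows. The median distance to a protein-coding start site was 25500 bp in members, 16800 bp in mirrored windows and 30200 bp over all windows. At the 36 members within 500 bp of a start site, the largest difference was at P2ry12, an ADP receptor of platelets and microglia (chr3:59066501-59067000). There B6 ranged from 69.3 to 83.3% (median 80.1%), C3 from 10.3 to 24.3% (median 13.8%), B6C3F1 from 44.1 to 57.3% and C3B6F1 from 43.9 to 58.5%. The next was A930018M24Rik, which had 2 adjacent members at its start. They had 77.3% ± 4.12 (SD, n = 6) in B6 against 17.7% ± 7.77 in C3, and 58.0% ± 3.79 against 5.18% ± 1.58. The others of the 8 named by this rule were at Adal (54.66 points), Abca17, an ABC transporter (51.50), Rab3b, a GTPase of vesicle release (48.05), Accn5, of the acid-sensing ion channel family (47.66), and Slc17a8, a vesicular glutamate transporter (47.22).

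Protein-coding genes with a member in the body numbered 468, of which 359 had 1, 67 had 2 and 42 had 3 or more. Nedd4l and AW555464 had 6 each, of 425 and 39 eligible windows in the gene. Gm7247, Nos1ap, Tnks1bp1, Lrrc8d, Magi1, Sox5, Ptprg and Dlc1 had 5 each. The genes Nos1ap, an adaptor of neuronal nitric oxide synthase, and Lrrc8d, a subunit of the volume-regulated anion channel, had mean levels of 86.6 and 79.4% in B6 and 38.5 and 36% in C3 over their members. Sox5 had 5 mirrored windows beside its 5 members, and Gm7247 had none.

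Member counts in the listed gene groups, some relevant to liver and some not, ran from 0 to 11. Windows were counted for a gene where they lay in it or within 5 kb of its start. For all protein-coding genes 685 of 818561 such windows were members, or 8.37 per 10000. The rate was 27.3 per 10000 in cytochrome P450 genes, 30 in serine protease inhibitors, 41 in H2 genes and 17.5 in hepatocyte transcription factors. It was 15.5 in ABC transporters, 11.9 in complement and coagulation genes and 51.6 in genes grouped by name as innate immune receptors. Each rate came from 1 to 6 windows. Mirrored windows numbered 7 in cytochrome P450 genes against 4 members, 1 against 5 in ABC transporters, 2 against 2 in hepatocyte transcription factors, 1 against 1 in complement and coagulation genes, 0 against 2 in serine protease inhibitors and 0 against 1 in H2 genes. In the 98 cytochrome P450 genes, 4 of 1465 windows were members, all in Cyp46a1, the cholesterol 24-hydroxylase. Its member with the largest difference (chr12:109579501-109580000) lay at 88.6 to 91.8% in the B6 animals, 19.6 to 47.5% in the C3 animals and 65.5 to 78.9% in the F1 animals. Conjugation enzymes (837 windows), Slco and Slc22 carriers (1547), apolipoproteins and lipid handling genes (956), protocadherins (1555) and the DNA methylation machinery (956) had 0 members, and 2, 0, 1, 0 and 0 mirrored windows. Hepatocyte transcription factors had 2 of 1141, in Ppara and Nr1i2, the nuclear receptors for fatty acids and for foreign compounds. The Ppara member, in an intron, had 69.8% ± 5.26 (SD, n = 6) in B6 and 17.9% ± 7.50 in C3. Complement and coagulation genes had 1 of 838, in an intron of Mbl2, a mannose-binding lectin, with 70.9% ± 8.22 in B6 and 27.1% ± 10.2 in C3. Serine protease inhibitors had 2 of 667 (Serpina12 and Serpinc1), ABC transporters 5 of 3220 (Abca3, Abca17 and Abcc1) and H2 genes 1 of 244, near H2-Q4, where the median 24-mer had 5 copies.

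The group of innate immune receptors was made of genes named Nod, Nlr, Tlr or Clec, and not every gene with such a name need be a receptor. It had 6 of 1162 windows in 5 genes (Clec16a, Nlrp4e, Nlrp9b, Tlr5 and Tlr6), beside 4 mirrored windows. The member with the largest difference lay over the start of Tlr6, a partner of Tlr2 in sensing bacterial lipopeptides, at 78.2% ± 3.34 (SD, n = 6) in B6 and 32.7% ± 4.84 in C3. Zinc finger genes of the Zfp family had 11 of 10551, olfactory and vomeronasal receptors 3 of 3328, and the 17 imprinted genes 1 of 835, in a coding exon of Grb10 (85.1% ± 2.00 and 54.5% ± 4.73). With so few members in each group, these counts are a description.

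SNVs were frequent in the members. An SNV lay in the window at 836 members (70.4%), against 69.3% of mirrored windows, 22.1% of all windows tested and 22.1% of windows with the same number of CpGs. Counting 500 bp on either side, the shares were 87.5, 86.4 and 34.1%. The median number of SNVs in the surrounding 100 kb was 254.5 in members, 272 in mirrored windows and 24 over all windows. Of windows with no SNV 0.0310% were members, and the share was 0.179% with 1 or 2 SNVs, 0.377% with 3 or 4 and 0.557% with at least 5. In 252 members (21.2%) the C3 sequence had fewer CpGs than B6, against 17.7% of mirrored windows and 4.9% of all windows. It had more in 184 members (15.5%), against 18.3% of mirrored windows and 4.83% of all windows. Members with 10 to 19 CpGs had an SNV in 61.3% of cases and the 26 with at least 20 CpGs in 30.8%, against 77.3% of those with 5. The shares of all windows in these classes of CpG number were not computed, so the fall may not be particular to members. No SNV lay within 500 bp of 149 members. The largest difference among these was at the window near Ust (73.16 points), where the median 24-mer had 52 copies. The depth of that window was 4.36 reads per CpG in B6 and 2.58 in C3. The tandem array near Srek1 (68.21 points), picked after its values were seen, was another of the 149.

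SNVs moved with read depth. Reads were aligned to mm9, and of the 2811885 autosomal SNVs the C3 base differed from mm9 at 2809661 and the B6 base at 2229. The ratio of C3 to B6 depth in a window, scaled to the depth of the animals, had a median of 0.780 in members, 0.784 in mirrored windows and 1.03 over all windows tested. It was under 0.5 at 234 members (19.7%) against 2.05% of all windows, and even, between 0.8 and the inverse of 0.8, at 539 (45.4%) against 88.7%. Members with no SNV in the window still had a median ratio of 0.827, against 1.05 for all windows with no SNV. The 24-mers of the mm9 sequence had a median of 1 copy in 1078 members, and 5.05% of members had a median of at least 10 copies, against 6.84% of every 300th window. The part of missing C3 reads in the strain difference was not tested. When CpGs within 10 bp of an SNV were left out, the rule chose 983 windows.

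Sequence motifs of liver factors differed between the strains at some members. The B6 and C3 sequences of each window were built from the list of SNVs, without insertions or deletions, and both strands were searched. Of the 836 members with an SNV, 44 had at least 1 motif that the C3 sequence of the window held and the B6 sequence did not, and 8 had the reverse, among the motifs of FOXA (TGTTTAC or TGTTTGC), HNF4A (CAAAGTCCA), C/EBP (TTGCGCAA or TTGCNNAA), HNF6 (ATTGATT) and HNF1 (GTTAATNA), where TTGCNNAA contains TTGCGCAA. Each motif was scored on its own, so the other sequence may hold another motif of the same factor. Of the 848 mirrored windows with an SNV, 9 had such a motif in C3 only and 52 in B6 only, and of all 321702 windows with an SNV 3310 and 3324. In members and in mirrored windows the larger count was that of the strain with the lower methylation, a description without a test. For AP-1 (TGANTCA), USF (CACGTG) and NRF1 (GCATGCGC) together, members had 7 windows with the motif in C3 only and 7 in B6 only, and mirrored windows 6 and 10. Of all windows with an SNV, 2757 and 2671 did so. These factors differed in mirrored windows, where USF had 2 in C3 only and 9 in B6 only, and AP-1 had 4 and 1.

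Scored in this way, 1 of the FOXA motifs was held by C3 and not by B6 at 16 members and by B6 and not by C3 at 2, and at mirrored windows at 4 and 21. Of all 321702 windows with an SNV, 1267 (0.394%) and 1261 (0.392%) did so, against 1.91 and 0.239% of members with an SNV. At the 16 members the median level was 81.6% in B6, 37.5% in C3 and 64.3% in the F1 animals. In the B6 sequence, TGTTTAC was present in 10.0% of members, 10.2% of mirrored windows and 7.05% of all windows. In the same order the shares were 24.6, 21.7 and 19.7% for TTGCNNAA, 6.14, 4.82 and 4.88% for GTTAATNA and 11.1, 11 and 9.11% for CACGTG. They were 11.1, 11.6 and 10.5% for TGTTTGC, 5.89, 5.96 and 5.75% for ATTGATT, 14.3, 14.8 and 14% for TGANTCA and 1.43, 1.14 and 1.27% for GCATGCGC. CAAAGTCCA was present in 0.421, 1.31 and 0.645%, and TTGCGCAA in 0, 0.0817 and 0.0788%. For TGTTTAC and CACGTG the share in mirrored windows lay closer to that in members than to that in all windows. Shown are 35 bases around the motif that differs, with its 7 positions in capitals in both strains, for the 4 members with the largest differences of the 16, and for both of the 2. These were picked after their values were seen. Each is written on the strand that reads the motif, and lower case marks the flanks. In the Lrfn2 pair the flank of both strains holds tgtttac, so that C3 lacks TGTTTGC there and not every FOXA motif.
Sox5 intron, B6: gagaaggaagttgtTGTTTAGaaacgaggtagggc
Sox5 intron, C3: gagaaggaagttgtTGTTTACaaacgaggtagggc
Elk3 and Cdk17 intron, B6: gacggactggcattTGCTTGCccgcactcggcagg
Elk3 and Cdk17 intron, C3: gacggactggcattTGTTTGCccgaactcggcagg
Rbfox1 intron, B6: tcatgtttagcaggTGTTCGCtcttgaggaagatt
Rbfox1 intron, C3: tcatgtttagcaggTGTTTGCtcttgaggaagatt
Magi1 intron, B6: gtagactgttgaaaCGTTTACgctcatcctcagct
Magi1 intron, C3: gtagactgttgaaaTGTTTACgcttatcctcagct
7990 bp from Usp28, B6: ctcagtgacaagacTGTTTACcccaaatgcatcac
7990 bp from Usp28, C3: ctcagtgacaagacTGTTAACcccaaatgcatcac
Lrfn2 intron, B6: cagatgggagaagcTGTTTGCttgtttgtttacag
Lrfn2 intron, C3: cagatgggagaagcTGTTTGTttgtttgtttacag

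The first 4 pairs lie at chr6:144406182-144406216 (minus strand), chr10:92718168-92718202, chr16:7098381-7098415 and chr6:93923782-93923816 (minus strand), and the last 2 at chr9:48785286-48785320 and chr17:49141220-49141254 (minus strand). Counted from the first base shown, with the B6 base first, they differ by G21C in Sox5, C17T and C25A in Elk3 and Cdk17, C19T in Rbfox1, C15T and C25T in Magi1, T19A near Usp28 and C21T in Lrfn2. The Sox5 member, in a gene for an SRY-related transcription factor, lay at 88.2 to 92.4% in the B6 animals and 17.4 to 31.9% in the C3 animals, with B6C3F1 at 54.9 to 67.1% and C3B6F1 at 55.3 to 72.8%. The groups of parents and of F1 animals did not overlap there. In the Elk3 and Cdk17 member B6 had 67.9% ± 3.02 (SD, n = 6) and C3 9.26% ± 2.55. In the Rbfox1 member, in a gene for a splicing factor, B6 had 96.0% ± 1.66 and C3 44.2% ± 1.87. In the Magi1 member, in a gene for a junction scaffold, they had 84.5% ± 2.72 and 38% ± 7.48. The C3 to B6 depth ratio was 0.444 in the Rbfox1 member and 0.32 in the Magi1 member. It was 0.947 in the Sox5 member and 1.01 in the Elk3 and Cdk17 member. At the members near Usp28 and in Lrfn2, B6 had 56.4% ± 6.49 and 76.3% ± 1.70, and C3 23.8% ± 5.95 and 44.3% ± 3.75. Whether FOXA proteins bound any of these windows was not analysed here.

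**Figure D3:**
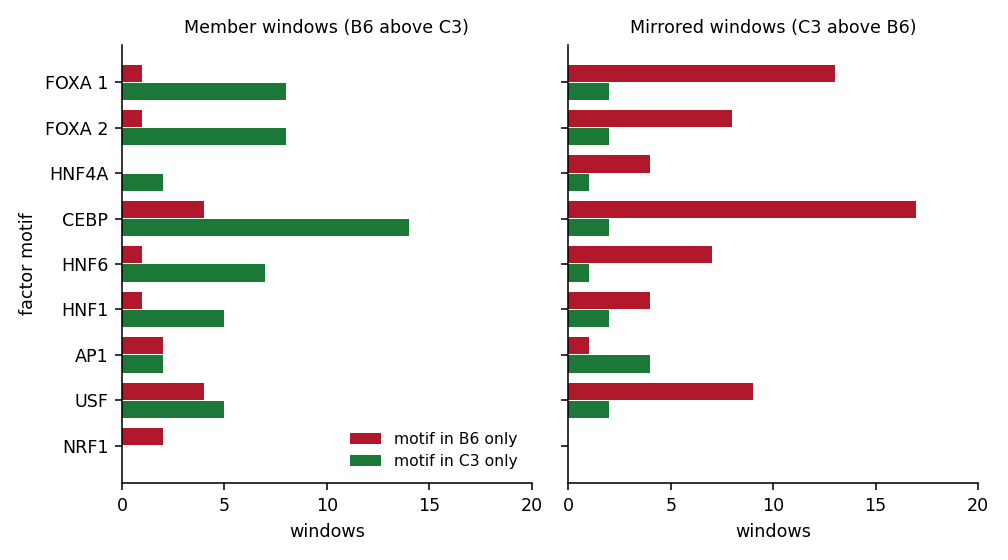
Number of windows whose B6 or C3 sequence alone holds a motif, by factor, for the 1188 members (left) and the 1224 mirrored windows (right). FOXA 1 and FOXA 2 are TGTTTAC and TGTTTGC, and the longer green bars on the left (8 and 8 windows) face longer red bars on the right (13 and 8 windows). CEBP is TTGCNNAA.

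The F1 animals, which the rule did not use, lay between the strains, whose means the rule did use. On a scale where 0 is the C3 mean and 1 the B6 mean over all members, the F1 position was 0.625 ± 0.0140 (SD, n = 6) in B6C3F1 and 0.636 ± 0.0172 in C3B6F1. Single animals ranged from 0.608 to 0.644 and from 0.617 to 0.656. All 12 animals lay above 0.5, the midparent. The F1 mean lay between the highest C3 and the lowest B6 animal at 1110 of 1188 members, it was at or above the B6 mean at 2 and at or below the C3 mean at 0. All 12 F1 animals lay in this gap at 549 members, all 6 B6C3F1 animals at 706 and all 6 C3B6F1 animals at 676. The rule demands a gap between the strains, and these counts were not computed for mirrored windows or for all windows. The 5th and 95th percentiles of the position over members were 0.454 and 0.836. The 6 F1 males ranged from 0.608 to 0.630 and the 6 F1 females from 0.629 to 0.656, which overlap by a single pair of animals.

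F1 levels were above the midparent at 1045 members (87.96%), against 56.66% of all windows. At 956 mirrored windows (78.1%) the F1 level lay on the B6 side of the midparent. The median of F1 minus midparent was 4.68 points over members and 0.164 points over all windows. By limma on percent methylation with Benjamini-Hochberg adjustment over all 1456902 windows, 194 members lay above the midparent and 2 below it (adjusted p below 0.05 and at least 10 points). Over all windows 0.0427% were called above and 0.0117% below. The midparent is made of the same parent values that chose the members, and C3, where the spread between animals was wider and the depth lower (20.5 against 28.2 reads per CpG), enters it with the same weight as B6. These counts are therefore a description, as are the values of single windows against the midparent, and no p is given for them.

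This excess moved with the depth ratio. Of the 234 members with a C3 to B6 depth ratio under 0.5, 119 were called above the midparent, and the F1 position was 0.761 ± 0.0161 (SD, n = 12). Of the 391 at 0.5 to 0.8, 43 were called and the position was 0.639 ± 0.0133, and of the 539 at even depth, 30 were called and it was 0.574 ± 0.0193. At higher ratios it was 0.509 ± 0.0368 over 24 members. The share of all windows called above the midparent was not computed within these classes. The share of B6 in the summed depth of both strains, averaged over members with the strain difference as weight, was 0.734, 0.606, 0.507 and 0.399 in these classes. With the strains weighted by their depth in the midparent, the median of F1 minus midparent was 1.61 points over members and 0.163 over all windows. By that midparent 33 members were called above and 1 below, and over all windows 0.0288% were called above and 0.00178% below. At mirrored windows the F1 level was below the midparent, by a median of -3.32 points, so that it again lay on the side of B6, with a position of 0.577 ± 0.0165 and, at even depth, 0.497 ± 0.0180.

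**Figure D4:**
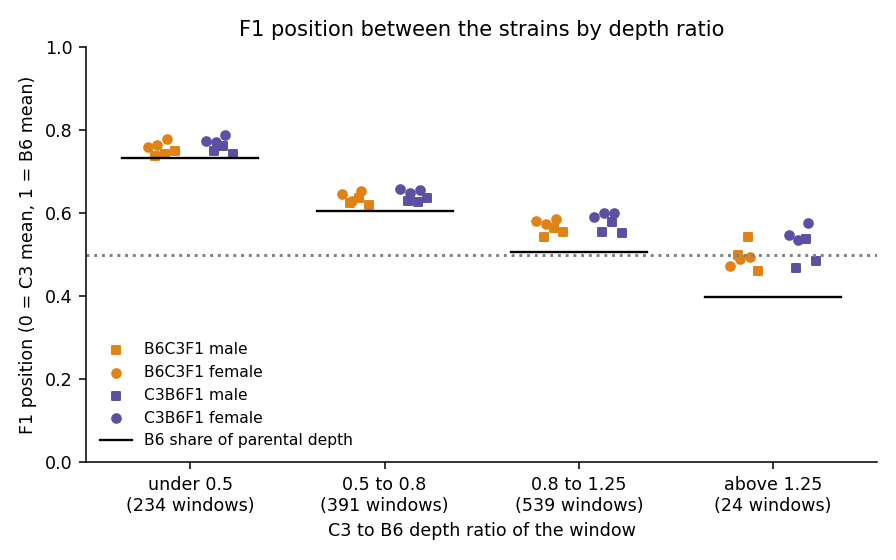
Position of each of the 12 F1 animals between the C3 mean (0) and the B6 mean (1) over the members, in 4 classes of C3 to B6 depth ratio, with squares for males and circles for females. The black line is the B6 share of the parental depth, at 0.734, 0.606, 0.507 and 0.399, and the animals' mean falls from 0.761 in the leftmost class to 0.509 in the rightmost.

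The largest called excess was in an intron of Gm17683 (chr9:88961501-88962000), where B6 ranged from 49.5 to 82.6%, C3 from 0 to 5.85%, B6C3F1 from 55.8 to 76.8% and C3B6F1 from 53.6 to 68.3% (28.5 points above the midparent). The F1 animals overlapped the B6 animals and not the C3 animals. The depth ratio of this window was 0.295 and its median 24-mer had 2 copies. The members in introns of Ptprk, a receptor tyrosine phosphatase, and, picked after their values were seen, Klra17, of the family of natural killer cell receptors, and Zfp933 lay 20.6 to 21.9 points above the midparent, at depth ratios of 0.189 to 0.217.

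A window with even depth stood beside these. At chr4:155510501-155511000, between genes and 26393 bp from 9430015G10Rik, the depth ratio was 0.997, with 19 CpGs, 3 SNVs and at least 297 counts in every animal. The B6 animals had 94.0, 93.2, 95.1, 92.4, 92.4 and 95.5%, and the C3 animals 41.4, 45.7, 48.0, 48.9, 34.3 and 50.5%. The 6 B6C3F1 animals had 89.0 to 93.3% and the 6 C3B6F1 animals 87.7 to 92.7%. The F1 level was thus near that of B6 in both crosses, 21.5 points above the midparent at a position of 0.939. The 2 members below the midparent were in a UTR of Agpat9, a glycerol-3-phosphate acyltransferase, and an intron of Plekhb1, each by 11.1 points. Their depth ratios were 1.94 and 2.32, and the median 24-mer of the Plekhb1 window had 3 copies.

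With limma fitted to the log2 ratio of both kinds of count, 0 of 1188 members passed an adjusted p below 0.05 with at least 20 points, and 116 (9.76%) had an unadjusted p below 0.05 against 6.69% of all windows. Over all windows 0.000343% were called higher in B6C3F1 and 0.000343% higher in C3B6F1. The median of B6C3F1 minus C3B6F1 was -0.465 points over members and 0.292 points over all windows. The largest difference was at the window near Ust (chr10:8270001-8270500), where the B6C3F1 animals had 25.2, 58.1, 48.7, 68.5, 62.4 and 70.2% and the C3B6F1 animals 71.7, 89.6, 73.4, 88.7, 81.8 and 84.5%. The crosses did not overlap there, yet the limma adjusted p was 0.500. On percent methylation in place of log2 ratios, this window was the single member called between the crosses (limma adjusted p = 0.0229). The parents had 83.6 to 92.7% in B6 and 0 to 26.4% in C3. The median 24-mer of this window had 52 copies in mm9.

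Between F1 males and F1 females 5 members were called, with 0 higher in males and 5 higher in females. Over all windows 0.00357% were called higher in F1 males and 0.0474% higher in F1 females. Between sires and dams 5 members passed the same thresholds, with 1 higher in sires and 4 higher in dams, and 0.0357 and 0.0684% of all windows did so. With a minimum of 10 points in place of 20, 28 members were higher in sires and 30 in dams, and 0.24 and 0.333% of all windows were. The sires and dams are the parents whose values chose the members, and the demand for no overlap between strains limits the spread within a strain, so this contrast is given as a description without a p. The window near Nudt7, a peroxisomal coenzyme A diphosphatase, passed in both contrasts.

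Of the 5 F1 calls, 3 were adjacent windows of the Srek1 region, of which the second and the third were picked after their values were seen. In the second of them (chr13:104381501-104382000, 10 CpGs) the F1 males had 37.8, 39.1, 46.1, 48.7, 41.9 and 35.7%, and the F1 females 60.5, 62.1, 55.6, 65.2, 67.8 and 68.4% (a difference of -21.7 points for males minus females, limma adjusted p = 2.69e-06). The parents had the same order within each strain. The B6 sires had 66.4, 65.2 and 60.0% and the B6 dams 76.3, 73.6 and 70.9%, and the C3 sires 10.9, 9.37 and 13% and the C3 dams 24.8, 27.8 and 29.6%. No male overlapped a female of the same strain or cross. The difference between sires and dams was -13 points. In the first window the F1 males ranged from 42.2 to 55.0% and the F1 females from 51.2 to 86.9%, and in the third from 48.3 to 65.4% and from 74.3 to 83.2%. The fourth window, with the tandem array, was not called (-10.2 points, limma adjusted p = 0.307). There the F1 males, at 44.7 to 53.0%, overlapped the F1 females, at 48.6 to 65.2%.

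The fourth F1 call was in an intron of Serpina12, the adipokine vaspin, a serine protease inhibitor (chr12:105273001-105273500, 9 CpGs, no SNV within 500 bp). The F1 males lay between 47.9 and 64.0% and the F1 females between 69.6 and 87.2%, without overlap (-23.7 points, limma adjusted p = 5.26e-06). The dams were higher than the sires by 13.8 points. At the window near Nudt7 (chr8:116613501-116614000) B6 sires had 43.4, 43.8 and 44.3% and B6 dams 82.9, 71.5 and 56.8%, C3 sires 16.5, 24.5 and 12.0% and C3 dams 24.3, 33.3 and 38.5%. The F1 males ranged from 28.9 to 44.1% and the F1 females from 52.4 to 69.5%, without overlap. Its depth ratio was 0.347 and it held 9 SNVs.

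Of the members that passed between sires and dams, Mtap7, a microtubule-associated protein, and Trak1, an adaptor of mitochondrial transport, had intronic members with dams higher by 22.9 and 22.5 points. At the Trak1 member the C3 sires had 31.0, 31.8 and 23.5% and the C3 dams 59.8, 65.3 and 66.5%, while the B6 sires had 75.2, 81.7 and 75.2% and the B6 dams 85.9, 85.8 and 89.9%. The F1 females were higher than the F1 males at both, by 17.2 and 17.4 points, under the 20 points needed. An intergenic member nearest to Arl4d, a small GTPase, had dams higher by 22.8 points. The single member that passed with sires higher was in an intron of Tspan15, a tetraspanin (21.7 points). Without C3 female 1, 0 members passed with sires higher. The same held at 60 counts in each animal, a limit that this window missed with a lowest count of 59. The Tspan15 member lay at 61.4, 69.3 and 66.9% in C3 sires and 17.5, 26.7 and 37.9% in C3 dams, whereas the B6 sires, at 76.3 to 84.8%, overlapped the B6 dams, at 71 to 80.5%. The F1 males there, at 60.5 to 83.6%, overlapped the virgin F1 females, at 61.5 to 77.7%. Dams had borne and nursed litters and sires had not, so sex and breeding cannot be told apart in that contrast.

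**Figure D5:**
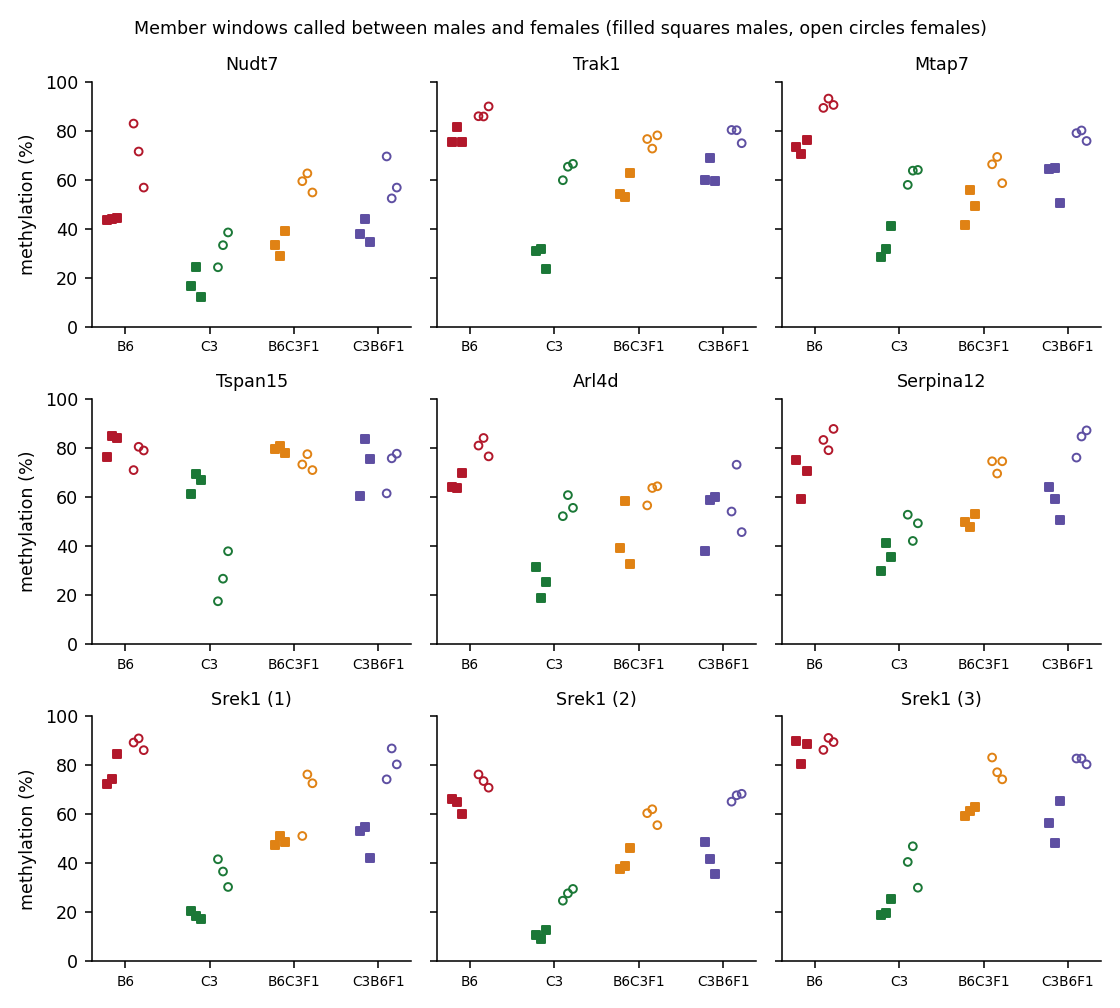
Percent methylation of each animal at the 9 members that passed between F1 males and F1 females (5) or between sires and dams (5, with the Nudt7 window in both), titled by the nearest start site, with filled squares for males and open circles for females in each strain and cross. The F1 female mean lies above the F1 male mean in the 5 windows called in F1 animals, as in the second Srek1 window (F1 males 35.7 to 48.7%, F1 females 55.6 to 68.4%), and C3 dams lie below C3 sires in the Tspan15 panel.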

How the data were processed

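Liver DNA of 24 mice was studied by whole-genome bisulfite sequencing. The authors deposited counts of methylated and unmethylated reads per CpG for each animal, made from reads aligned to mm9 with Bismark 0.7.8 and Bowtie 0.12.8 (the submitters' processing notes also name Picard 1.110 and CASAVA 1.8.2), with duplicates removed and libraries of an animal merged. CpGs were kept by the authors where both strains and mm9 have the dinucleotide, and a list of SNVs from sequencing of both strains was deposited. Reads that carry C3 bases mismatch mm9, which can lower C3 depth.

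Counts were summed in fixed 500-bp windows with at least 5 CpGs and 30 counts in each animal. Percent methylation is methylated over all counts. Autosomal depth was 19.4 to 32.8 reads per CpG. Cross and sex were tested with limma 3.58.1 (R 4.3.3) on log2((methylated + 1)/(unmethylated + 1)), and F1 against midparent on percent, with means for 8 groups, trended robust variances and Benjamini-Hochberg adjustment over all 1456902 windows. Calls needed an adjusted p below 0.05 and at least 20 points (10 against the midparent). The fits of sires against dams and of F1 against midparent use the parent values that chose the members and are given as counts without a p. In simulated counts of 42678 windows, 99% of 200 windows changed by 30 points between crosses were called, with 0 false calls, and 97.5% of 200 windows moved by 15 points from the midparent, with 2 false calls. The changed windows had intermediate levels, and apart from the change all groups shared 1 level, without a strain difference. The spread between animals was set, not taken from the members, and each change exceeded the size needed for a call. These rates therefore do not give the power at the members. Other values were computed with Python 3.11.15.

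Members, gene lists and motifs were chosen with earlier results of these data known. Windows named were the 8 members with the largest differences at 60 or more counts per animal, the 6 longest runs, the 8 with the largest differences at start sites, the largest in each gene list, up to 3 called per contrast and direction, the 3 on each side of the threshold, and the largest without an SNV within 500 bp. Others are said to be picked after their values were seen. Gene positions and start sites are from GENCODE on mm9. A marker of the tissue check is not reported here.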

Additional observations from a re-analysis of the deposited data

Results flagged for a closer look

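In groups of 6 animals, a value was set apart where the gap from the highest or lowest animal to the next, divided by the range of the group, was above Dixon's critical value of 0.625. Of 208 groups tested (52 values in 4 groups each), 16 were set apart (7.69%), and chance alone gives about 1 in 20.

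The mean over members was set apart in B6 male 2 (76.22% against 75.65 to 75.84%, ratio 0.674) and in C3 male 3 (36.59% against 34.92 to 35.38%, ratio 0.726). In B6, single animals were set apart at the members near Kitl (female 1 at 93.1%, ratio 0.643), at P2ry12 (male 1 at 69.3%, ratio 0.693), in Zfp933 (male 2 at 99.2%, ratio 0.657), in Agpat9 (female 3 below the other animals at 88.3 to 92.3%, ratio 0.675) and in Magi1 (male 2 at 79.2%, ratio 0.658). In C3 they were set apart near Olfr736 (female 3 at 53.6%, ratio 0.715), in Gm17683 (male 1 at 5.85% against 0 to 0.629%, ratio 0.892), in Plekhb1 (male 2 at 55.9%, ratio 0.793) and in Elk3 and Cdk17 (female 3 at 14.3%, ratio 0.785). In B6C3F1 the animals were male 3 near H2-Q4 (87.2%, ratio 0.645) and male 1 in Ptprk (59.6%, ratio 0.711). In C3B6F1 they were female 3 in Ptprg (62.3%, ratio 0.740), female 2 in Plekhb1 (63.1%, ratio 0.636) and female 3 in Lrfn2 (71.5%, ratio 0.695).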

How the results depend on the processing

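The number of members was 3433 at 20 points, 482 at 40 points, 318 with at least 10 CpGs, 919 with 60 counts, 1204 with shifted windows and 1187 to 1219 with 1 animal left out. Between the crosses 1 member was called on the percent scale, and 0 to 0 with 1 animal left out. F1 sex gave 25 calls at 10 points and 4 to 8 with 1 animal left out, with 8 reached without B6C3F1 male 2 or without B6C3F1 female 3. Sires against dams gave 2 calls at 60 counts (0 higher in sires), 58 at 10 points (28 higher in sires and 30 in dams) and 4 to 7 with 1 animal left out. Against the midparent, 96 of the 919 members with 60 counts were called, and 8 of all members at 20 points. There were 34 with the midparent weighted by depth and 181 to 201 with 1 animal left out. Shares over all windows were not computed for the crosses on the percent scale, for F1 sex at 10 points or for the midparent at 20 points. Nor were they computed at 60 counts or with 1 animal left out. The F1 position was 0.574 at even depth and 0.628 to 0.633 with 1 animal left out. The share of members with an SNV was 87.5% when 500 bp on either side were counted, and its ratio over the background was 3.19, or 1.02 over mirrored windows. The causes were not tested.

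The correlation of deviations had a median of 0.0081 (highest 0.0484) over 84 pairs of animals with the same replicate number. Over 168 pairs with different numbers it was -0.00207 (highest 0.0221), and none was over 0.1. These pairs mix groups that could share a family with groups that could not. Whether the numbers mark families was therefore not decided, and no pairing was used in the main fits. With the replicate block the calls were 0, 5, 5 and 196, as without it. Depth limits windows with few counts, since percentages there have wide counting error.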
